A study of Mus musculus with 7 samples.

Results

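The ectoderm obtained in culture from mouse SK7 embryonic stem (ES) cells was set against the endoderm and the paraxial mesoderm obtained from the same line, gene by gene. The comparison rests on 3 of the 7 arrays of the series, 1 for each layer, named Ect (ectoderm), End (endoderm) and Pme (paraxial mesoderm). The other 4 arrays carry the undifferentiated line (SK7_ESC), Brain, Liver and Sk_muscle (skeletal muscle), and served only to place the genes called. All 7 arrays measured total RNA on the same expression array design, which has several probe sets, groups of short probes, for many genes. SK7 is a male line with a transgene in which the Pdx1 promoter drives GFP, so SK7_ESC, Ect, End and Pme all carry it, and the 3 layers come from that single line. The tissues came from adult male mice of the ICR strain, and the labels give male and ICR for all 7 samples. The number of cultures or animals behind an array was not given in the sources used here, and the labels and the study's methods name different RNA kits.

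A gene was counted as higher in Ect when its signal there was at least 2 times the brighter of End and Pme, and as lower when the dimmer of End and Pme was at least 2 times its signal in Ect. Signals under 50 were taken as background and raised to 50 first, so a ratio against a dim array is a lower bound, written as "at least". Each of 18194 genes was read from its brightest probe set, judged by the mean of log2 signals over the 7 arrays. With 1 array for each layer there is no replicate error and no test was possible: sizes are given, and a difference between Ect and another layer is a difference between 2 hybridizations. In RNA from a whole culture, fewer cells of a type and less RNA per cell cannot be told apart.

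The ectoderm of the gastrulating embryo gives rise to the neural plate, the neural crest and the surface epithelium. In the neural plate and tube, Sox factors of the SoxB1 group keep cells as progenitors, Delta ligands signal through Notch receptors to neighbouring cells and hold them back from differentiation, and proneural factors drive the cells that escape into becoming neurons. Gradients of Hedgehog and BMP signals pattern the tube from ventral to dorsal, and retinoic acid and Hox genes pattern it along the body axis.

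Of the 18194 genes, 332 (1.82%) were higher in Ect than in both End and Pme and 213 (1.17%) were lower than in both. Counted without the size rule, 476 genes (2.62%) were above background in Ect and under it in End and Pme, and 321 (1.76%) the reverse. Among the genes higher in Ect were genes of the neural tube: 18 of 32 neural progenitor genes, 13 of 38 genes of Notch signalling and proneural factors, and 15 of 35 genes of young neurons, with some genes in more than 1 list. The genes lower in Ect were led by keratins and desmosome genes, with 5 of 36 BMP and TGF-beta pathway genes and some basement membrane genes among them. Of the genes higher in Ect, 137 were past 3-fold, 61 past 5-fold and 20 past 10-fold, and of the genes lower in Ect these numbers were 77, 17 and 4. The median ratio was 2.73 among the higher genes, 119 of which had a lower bound only, and 2.62 among the lower genes, 69 of which had a lower bound.

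**Figure D1:**
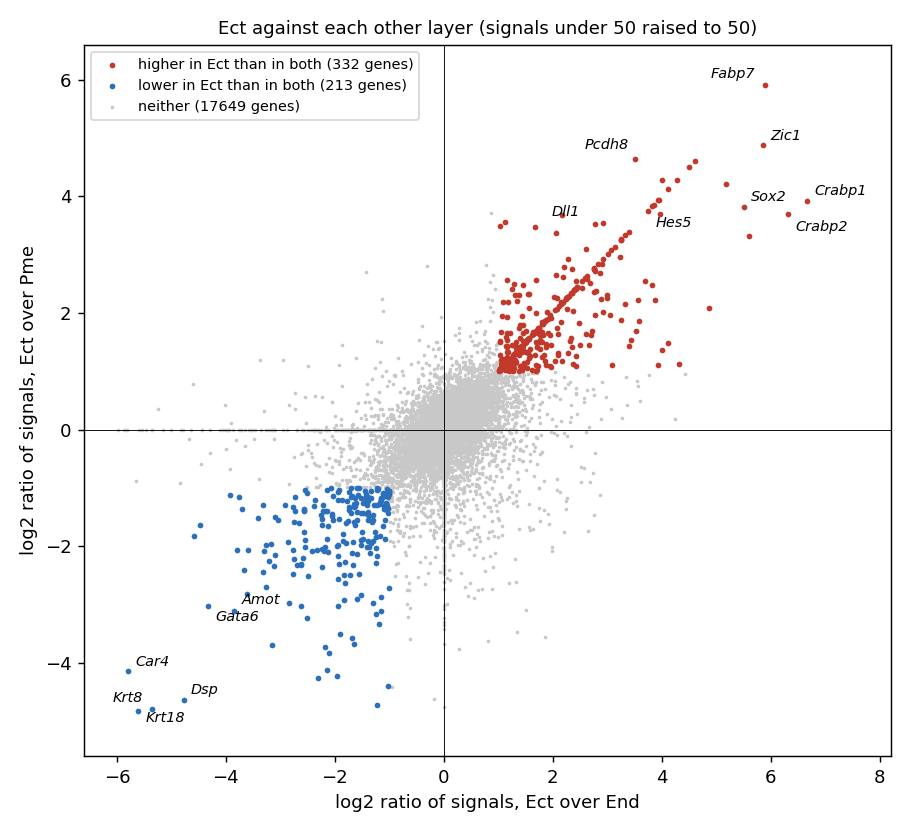
Log2 ratio of the signal in Ect over that in Pme (vertical axis) against the log2 ratio of Ect over End (horizontal axis), a point for each of 18194 genes, with signals under 50 raised to 50. The 332 genes higher in Ect than in both layers lie at the upper right and the 213 lower ones at the lower left, and points on the diagonal line at the upper right are genes under background in both End and Pme.

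The proximal promoters of some genes with the largest ratios are shown to set their sequence composition beside their signals. Each is the stretch of 250 bases before the gene's start in RefSeq (GRCm38.p6), 5′ to 3′ on the gene's strand, with every CG pair in capitals. Zic1, which encodes a zinc finger protein of the dorsal tube, lies on the minus strand of chromosome 9 (chr9:91365769-91366018), and Hes5, a repressor that Notch signalling switches on, on the plus strand of chromosome 4 (chr4:154960673-154960922). Fabp7, the brain-type fatty acid binding protein of neural progenitors, is on the plus strand of chromosome 10 (chr10:57784673-57784922). The keratin genes Krt8 and Krt18, partners in the filaments of simple epithelia, are on chromosome 15, on the minus strand (chr15:102004343-102004592) and on the plus strand (chr15:102027966-102028215).
Zic1: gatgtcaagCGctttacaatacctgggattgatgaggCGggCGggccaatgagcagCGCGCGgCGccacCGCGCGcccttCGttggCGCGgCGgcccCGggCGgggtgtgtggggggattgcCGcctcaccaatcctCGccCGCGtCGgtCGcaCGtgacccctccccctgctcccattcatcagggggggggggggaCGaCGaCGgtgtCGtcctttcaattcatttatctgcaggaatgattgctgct
Hes5: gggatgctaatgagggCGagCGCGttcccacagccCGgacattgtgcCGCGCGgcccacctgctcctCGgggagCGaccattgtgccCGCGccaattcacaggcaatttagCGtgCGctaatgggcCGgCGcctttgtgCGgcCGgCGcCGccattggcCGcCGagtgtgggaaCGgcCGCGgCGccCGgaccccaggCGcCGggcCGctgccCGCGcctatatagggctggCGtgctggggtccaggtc
Fabp7: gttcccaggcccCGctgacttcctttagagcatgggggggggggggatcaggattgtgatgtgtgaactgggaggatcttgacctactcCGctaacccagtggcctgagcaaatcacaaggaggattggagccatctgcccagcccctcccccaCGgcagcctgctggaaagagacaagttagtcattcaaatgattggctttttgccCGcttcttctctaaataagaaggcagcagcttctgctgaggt
Krt8: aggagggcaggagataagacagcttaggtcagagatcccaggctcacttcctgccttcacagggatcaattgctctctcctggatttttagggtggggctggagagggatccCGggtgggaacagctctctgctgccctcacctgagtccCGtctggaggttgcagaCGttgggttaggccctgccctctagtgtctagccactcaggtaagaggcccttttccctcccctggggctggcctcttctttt
Krt18: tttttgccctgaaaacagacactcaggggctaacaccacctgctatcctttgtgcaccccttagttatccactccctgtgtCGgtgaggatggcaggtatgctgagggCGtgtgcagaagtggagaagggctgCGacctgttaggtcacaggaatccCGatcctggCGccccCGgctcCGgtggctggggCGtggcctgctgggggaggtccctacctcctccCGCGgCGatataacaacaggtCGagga
The windows of Zic1 and Hes5 held 27 and 32 CG pairs, and that of Fabp7 held 4. The keratin windows held 3 (Krt8) and 12 (Krt18).

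Over the called genes, a RefSeq window was found for 257 of the 332 higher and 162 of the 213 lower ones, and some genes had several starts. The 372 windows of the higher genes held a median of 14.5 CG pairs (quartiles 7.75 and 24.0), the 233 windows of the lower genes a median of 11 (5.0 and 19), and the 18110 windows of 14453 genes measured a median of 12.0 (4.0 and 21.0). The quartile ranges of these sets overlapped widely. Short motifs were counted on both strands, and matches of different motifs may share bases. TGGGAA, the core of the motif of the Notch effector Rbpj, was in 19.9% of the windows of higher genes, in 23.2% of those of lower genes and in 21.1% of all windows. In the windows printed above it occurred 2 times in that of Hes5, 1 time each in those of Fabp7 and Krt8, and 0 times in those of Zic1 and Krt18. The E-box CAGCTG was in 15.6% of the windows of higher genes, 15.5% of those of lower genes and 12.8% of all, and CAGATG in 12.1%, 8.2% and 11.6%. The Sox motif AACAAT was in 6.2%, 3.9% and 6.6%, and the GATA motif AGATAA in 3.8%, 7.3% and 7.4%. A match is a description of the letters in a window and not a binding site.

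The 3 markers given for this ectoderm were chosen with earlier results of these arrays known, so their signals describe it and are no check of the label. Zic1 had a signal of 2888.5 in Ect, with 15.1 in End and 98.6 in Pme and a ratio of 29.3 over Pme. Pcdh8, a protocadherin of dividing neural and mesodermal cells, had 1253.1 in Ect, with 109.5 in End and 27.5 in Pme, a ratio of 11.4 over End. Dll1, a Delta ligand of Notch, had 578.4 in Ect, with 84.9 in End and 19.4 in Pme, a ratio of 6.81 over End. All 3 were brightest in Ect by wide margins, but Pcdh8 and Dll1 are also genes of the presomitic mesoderm, so neither is particular to ectoderm. Outside the comparison, Zic1 and Pcdh8 were bright in Brain (346.2 and 478.5) and Dll1 was under background there (30.2).

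The label Pme has less behind it on these arrays. Tbx6 and Msgn1, factors that specify presomitic mesoderm, had 6.5 and 6.6 in Ect, with 13.5 and 4.5 in End, and 17.7 and 2.7 in Pme. Meox1, a factor of somites, had 17.3 in Ect, with 1.9 in End and 16.0 in Pme, so all 3 of these genes were under background in every layer. Pdgfra, a growth factor receptor of paraxial and other mesoderm, marked Pme with 42.5 in Ect, with 96.2 in End and 1062.2 in Pme. End carried Sox17, a factor that specifies endoderm, with 23.8 in Ect, with 2941.7 in End and 23.1 in Pme.

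Neural progenitor genes were the list with the largest number of members higher in Ect. Of 32 measured, 18 were higher than in both End and Pme and 0 were lower, and the median log2 ratio over the brighter of End and Pme was 1.21, against 0.0 over all genes. Fabp7 had 2986.0 in Ect, with 5.3 in End and 14.5 in Pme, a ratio of at least 59.7 and the largest of all genes. Sox2, which keeps neural progenitors and pluripotent cells undifferentiated, had 2368.9 in Ect, with 52.1 in End and 167.3 in Pme, a ratio of 14.2 over Pme. Sox1, the SoxB1 gene most restricted to the neural plate, had 337.2 in Ect, with 1.9 in End and 5.6 in Pme, at least 6.74-fold higher in Ect. Sox3, the remaining SoxB1 gene, had 553.5 in Ect, with 173.1 in End and 30.1 in Pme, a ratio of 3.20 over End. All members of the SoxB1 group were thus brightest in Ect among the layers, and they parted in ES cells, where Sox2 had 3029.7, Sox1 had 118.1 and Sox3, at 33.5, was under background.

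Transcription factors of the neural tube showed some of the widest separations. The POU factor gene Pou3f3 had 1219.5 in Ect, with 11.6 in End and 12.7 in Pme, at least 24.4-fold higher. The orphan nuclear receptor gene Nr2f1 had 1136.7 in Ect, with 7.1 in End and 45.1 in Pme, at least 22.7-fold higher, and its relative Nr2f2 had 278.8 in Ect, with 11 in End and 78.4 in Pme, a ratio of 3.56. For these factors the other layers were at or near background while Ect was bright. Rfx4, a factor of neural tube patterning, had 867.4 in Ect, with 1.7 in End and 0.7 in Pme, but this rests on 1 of its 2 probe sets: the geometric mean of both gave a ratio of 1.0. Msi1, an RNA-binding protein of neural progenitors, had 618.0 in Ect, with 148.4 in End and 98.7 in Pme, a ratio of 4.16 over End, which was 1.95 with the geometric mean of its probe sets.

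Secreted and surface proteins of progenitors followed. Ptn, which encodes the growth factor pleiotrophin, had 2420.3 in Ect, with 33.7 in End and 242.5 in Pme, a ratio of 9.98 over Pme. Ednrb, an endothelin receptor of neural progenitors and crest, had 763.1 in Ect, with 6.6 in End and 30.7 in Pme, at least 15.3-fold higher. Sfrp2, a secreted modulator of Wnt signalling, had 1819.8 in Ect, with 44.5 in End and 98.3 in Pme, a ratio of 18.5 over Pme. Not every progenitor gene separated Ect. Pax6, a factor of neural progenitors in much of the tube, was under background throughout, with 30.5 in Ect, with 10.3 in End and 10.6 in Pme. Nes, the progenitor filament nestin, had 76.5 in Ect, with 19.2 in End and 29.5 in Pme, too dim for a 2-fold call over a background of 50. Cdh2, the cadherin of the neural tube and of mesenchyme, was bright in every layer, with 1544.8 in Ect, with 1204.9 in End and 733.9 in Pme.

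**Figure D2:**
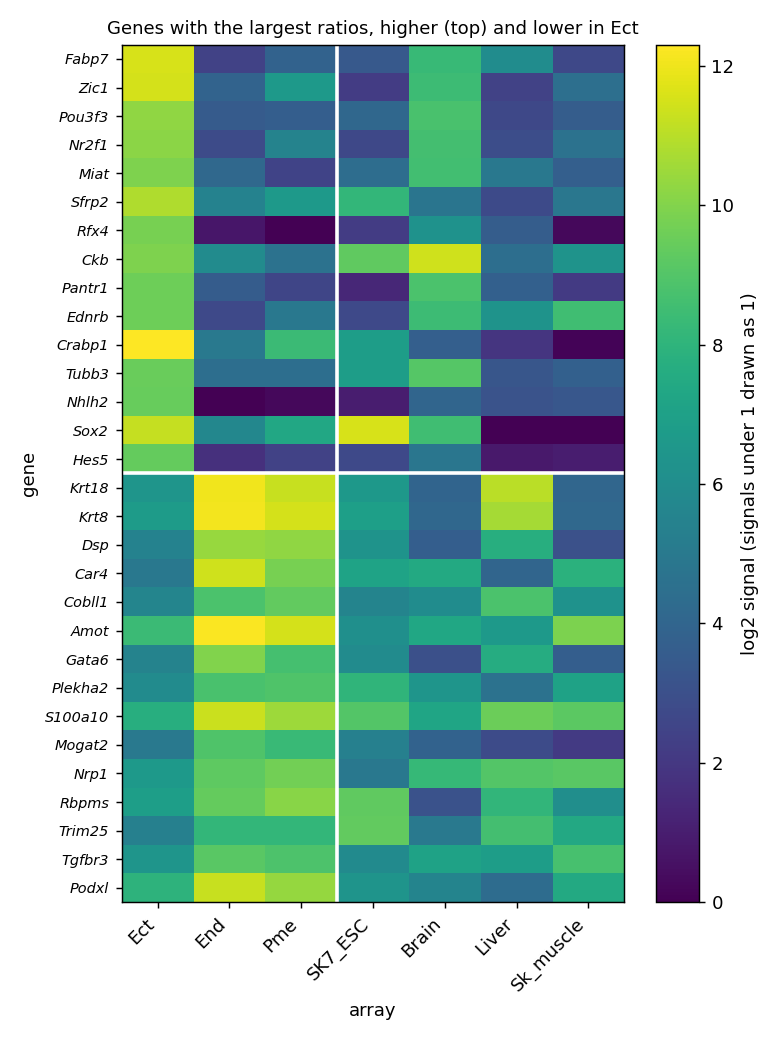
Signal of the genes with the largest ratios in each direction (rows) in each array (columns), with the 15 genes higher in Ect above and the 15 lower ones below, on a log colour scale. The upper rows are bright in Ect and dim in End and Pme, and many of them are bright again in Brain, while the lower rows are dim in Ect and bright in End and Pme.

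Some genes of Notch signalling and some of the proneural factors it restrains were higher in Ect. Of 38 measured genes of this list, 13 were higher in Ect, 1 was lower and 24 were neither. The median log2 ratio was 0.35 against 0.0 over all genes. Besides Dll1, the receptor gene Notch1 had 253.0 in Ect, with 34.8 in End and 27.9 in Pme, at least 5.06-fold higher. Its paralogues Notch2 and Notch3 were bright in every layer and were not called. Hes5, a direct target of Notch in the neural tube, had 671.5 in Ect, with 3.3 in End and 5.4 in Pme, at least 13.4-fold higher. Hes1, a related target gene that many cell types share, ran the other way, with 112.5 in Ect, with 564.1 in End and 470.6 in Pme, 4.18-fold higher in Pme than in Ect. Both are repressors downstream of Notch, and they moved in opposite directions between these arrays. Nrarp, a feedback inhibitor of Notch, had 640.6 in Ect, with 142.7 in End and 45 in Pme (4.49 over End), and Dtx4, of the Deltex family of Notch regulators, had 780.0 in Ect, with 37.4 in End and 60.3 in Pme (12.9 over Pme).

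Some proneural and early neuronal transcription factors were near 0 in the other layers. Neurog2, a proneural factor that starts neurogenesis, had 228.1 in Ect, with 3.0 in End and 0.9 in Pme, at least 4.56-fold higher. Nhlh2, a helix-loop-helix factor of newborn neurons, had 709.2 in Ect, with 0.2 in End and 1.2 in Pme, at least 14.2-fold higher. Insm1, a zinc finger factor of cells leaving the progenitor pool, had 478.4 in Ect, with 4.4 in End and 1.7 in Pme, at least 9.57-fold higher. None of these 3 factors was above background in SK7_ESC (0.4, 2.0 and 28.2) or in Brain (1.6, 16.0 and 49.2). Other proneural genes were not called: Neurog1 and Atoh1 were under background in every layer (47.2 and 28.7 in Ect), and Neurod1 had 86.6 in Ect. Lfng, a glycosyltransferase that tunes Notch receptors, was only just past the rule, with 101.8 in Ect, with 7.5 in End and 13 in Pme (at least 2.04-fold), and its call was lost under quantile normalization (1.87).

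Genes of young neurons, which encode cytoskeletal, RNA-binding and surface proteins and transcription factors, were called in Ect as well. Of 35 measured, 15 were higher and 0 were lower, with a median log2 ratio of 0.22 against 0.0 over all genes. Tubb3, the neuronal beta-tubulin, had 721.2 in Ect, with 21.7 in End and 21.8 in Pme, at least 14.4-fold higher. Map2, a microtubule-associated protein of dendrites, had 479.1 in Ect, with 9.8 in End and 35.0 in Pme, at least 9.58-fold higher. Nefm, a neurofilament subunit, had 261.5 in Ect, with 6.4 in End and 5.1 in Pme, at least 5.23-fold higher. Map2 and Nefm were far brighter in adult Brain, at 3138.4 and 1122.8, and Tubb3 had 532.4 there, below its signal in Ect. Crmp1, a cytoskeletal protein of growing axons, had 569.1 in Ect, with 71.7 in End and 115.4 in Pme, a ratio of 4.93 over Pme. With a background of 100, 6 genes of this list were called. Dcx, a widely used marker of migrating neurons, was under background, with 26.9 in Ect, with 1.4 in End and 9.2 in Pme.

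Some neuronal genes were not particular to Ect. Stmn2, a microtubule regulator of growth cones, had 483.4 in Ect, with 1053.5 in End and 118.5 in Pme, and SK7_ESC had 1275.4. Lhx1, a homeodomain factor of both neurons and anterior endoderm, had 85.6 in Ect, with 2067.9 in End and 21.5 in Pme. Chga, a granule protein of neuroendocrine cells, had 21.4 in Ect, with 304.9 in End and 9.4 in Pme. These 3 genes were brighter in End than in Ect. Of 14 glia genes, 0 were called in either direction: the astrocyte filament gene Gfap had 10.7 in Ect, with 11 in End and 9.3 in Pme, against 225.3 in Brain. The host transcript of a brain microRNA, Mir124-2hg, had 380.2 in Ect, with 2.2 in End and 0.3 in Pme, a ratio of at least 7.60, and its signal in Brain was 162.9.

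Genes that mark positions along the neural axis gave a graded picture. Of 18 measured forebrain and anterior neural plate genes, 0 were higher in Ect, and 15 were under background in all 3 layers. The head factor gene Otx2 had 11.7 in Ect, with 2406.3 in End and 0.7 in Pme, and Hesx1, a factor of the anterior neural plate, had 3.2 in Ect, with 127.5 in End and 9.0 in Pme. Six3 and Lhx2, factors of the forebrain and eye field, were under background in every layer, and Emx2, a factor of the cortex, had 7.4 in Ect, with 2.3 in End and 16.1 in Pme. Sfrp1, a secreted modulator of Wnt signalling, was the only gene of this list above background in Ect, at 328.8 in Ect, with 1198.0 in End and 120.7 in Pme. The 3 genes above background in any of the layers (Otx2, Hesx1 and Sfrp1) were brightest in End.

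Of 20 midbrain and hindbrain genes, by contrast, 8 were higher in Ect and 0 were lower, with a median log2 ratio of 0.52 against 0.0 over all genes. Irx2 and Irx5, Iroquois factors of the posterior neural plate, had 502.5 and 476.9 in Ect, with 14.0 and 69.2 in End, and 17.3 and 72.4 in Pme, ratios of at least 10.1 and of 6.59. Gbx2, which positions the boundary between midbrain and hindbrain from the posterior side, had 142.3 in Ect, with 4.6 in End and 3.5 in Pme, at least 2.85-fold higher. En2, a factor of that boundary region, had 112.5 in Ect, with 9.0 in End and 9.3 in Pme, at least 2.25-fold higher. In SK7_ESC, Gbx2 had 188.3, above its signal in Ect, and En2 had 57.0. En1, Pax5, Pax8 and Fgf17, further genes of this list, were under background in every layer, at 7.6, 14.4, 9.6 and 9.9 in Ect. Of the 20 genes, 14 were above background in at least 1 layer. The boundary signal Fgf8 was under background in Ect (9.2), with 658.5 in End and 19.5 in Pme, while Fgf15 had 166.7 in Ect, with 14.0 in End and 53 in Pme. With a background of 100, 4 genes of this list were called; En2, Gbx2, Fgf15 and Hoxa2 were not.

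Hox genes, which give cells their position along the trunk, divided by paralogous group. Of 33 measured, 6 were higher in Ect (Hoxa2, Hoxa3, Hoxb2, Hoxb3, Hoxb4 and Hoxc4) and 0 were lower than in both layers. All 6 were among the 10 genes of groups 1 to 4, with medians of 150.6 in Ect, with 5.8 in End and 27.8 in Pme. Among the 9 genes of groups 5 to 8 the medians were 46.5 in Ect, with 4.2 in End and 62.7 in Pme, and among the 14 genes of groups 9 to 13 they were 28.0, 6.6 and 59.2. Hoxb2 had 591.4 in Ect, with 25.1 in End and 127.3 in Pme, and Hoxb3 had 575.7, 14.5 and 179.0, ratios of 4.65 and 3.22 over Pme. Ect was brighter than Pme, with the brighter signal above background, for 7 genes of groups 1 to 4, 0 of groups 5 to 8 and 2 of groups 9 to 13, and Pme was brighter than Ect for 1, 5 and 7 genes. Hoxd9 had 40.1 in Ect, with 13.7 in End and 489.3 in Pme, and Hoxd1, of the first group, went with Pme, at 19.3 in Ect, with 4.7 in End and 109.3 in Pme. Hoxa3 was called from 1 of its probe sets, and with the geometric mean of all of them its ratio was 1.0. With a background of 100, 3 of the Hox genes were called.

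**Figure D3:**
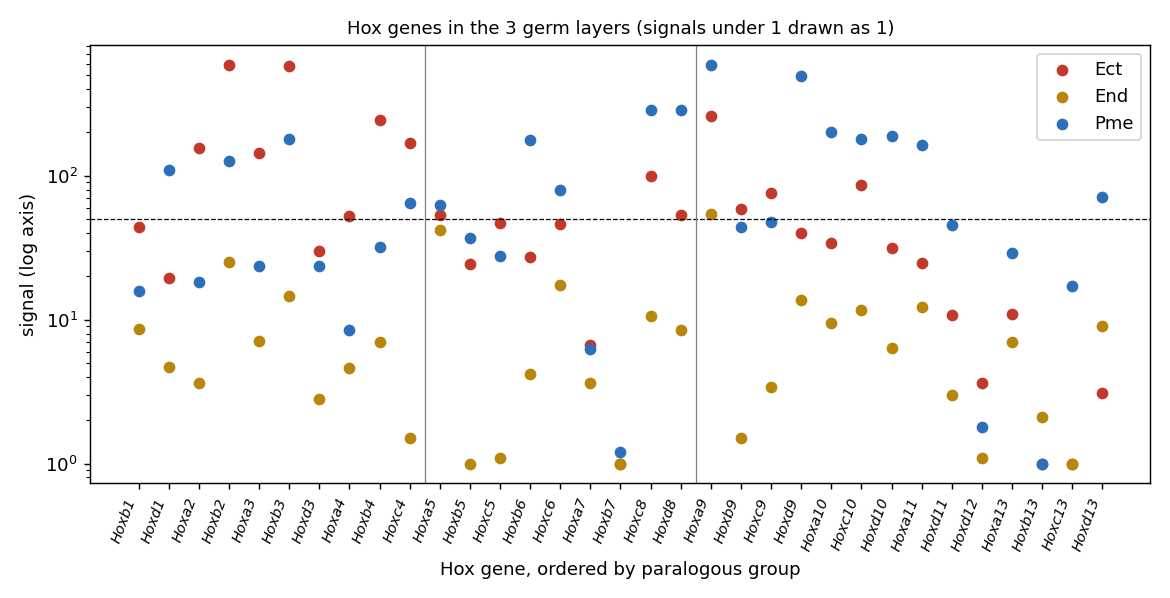
Signal on a log axis of each of 33 measured Hox genes, ordered by paralogous group from left to right, in Ect, End and Pme. Genes of groups 1 to 4 are mostly brightest in Ect, and of the genes above background in groups 5 to 13 most are brightest in Pme, with End under or near background.

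Along the dorsal to ventral axis, some genes from each side were above background. Of 19 genes of the dorsal neural tube, 5 were higher in Ect (Zic1, Zic5, Msx3, Pax3 and Olig3) and 0 were lower. Msx3, a homeobox gene confined to the dorsal neural tube, had 404.9 in Ect, with 1.7 in End and 2.8 in Pme, at least 8.10-fold higher. Olig3, a factor of dorsal progenitors, had 309.3 in Ect, with 2.4 in End and 1.2 in Pme, at least 6.19-fold higher. Pax3, a paired box factor of the dorsal tube, neural crest and somites, had 363.4 in Ect, with 22.8 in End and 56.6 in Pme, a ratio of 6.42. Msx1 and Msx2, targets of BMP signalling in many tissues, were brightest in Pme instead, with 63.3 and 179.3 in Ect, with 60.6 and 188.2 in End, and 368.0 and 444.7 in Pme. Zic5 was just past the rule over End, with 559.0 in Ect, with 274.4 in End and 36.4 in Pme (2.04), and its call was lost when the arrays were scaled to the same median (1.81).

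Of 18 genes of the ventral tube and Hedgehog signalling, 3 were higher in Ect and 0 were lower, and 8 were above background in any layer. The ventral factor genes Nkx2-2, Nkx2-9, Nkx6-1 and Nkx6-2 were under background in every layer, at 13.8, 42.5, 33.2 and 8.5 in Ect. Olig2, a further gene of this list, had 96.7 in Ect, with 4.9 in End and 0.7 in Pme, and was not called. The ligand gene Shh had 248.7 in Ect, with 95.4 in End and 24.3 in Pme (2.61 over End), and its co-receptor gene Boc had 307.2 in Ect, with 28.6 in End and 98.9 in Pme (3.11 over Pme). Gas1, a further co-receptor, had 2753.3 in Ect, with 325.8 in End and 1272.6 in Pme (2.16 over Pme). These calls rest on the brightest probe set, and with the geometric mean of each gene's probe sets 0 of the 3 was called. The receptor and target gene Ptch1 was alike in all layers, at 972.6 in Ect, with 747.3 in End and 759.4 in Pme, and Foxa2, the factor of the floor plate and of endoderm, had 64.0 in Ect, with 958.2 in End and 59.5 in Pme.

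**Figure D4:**
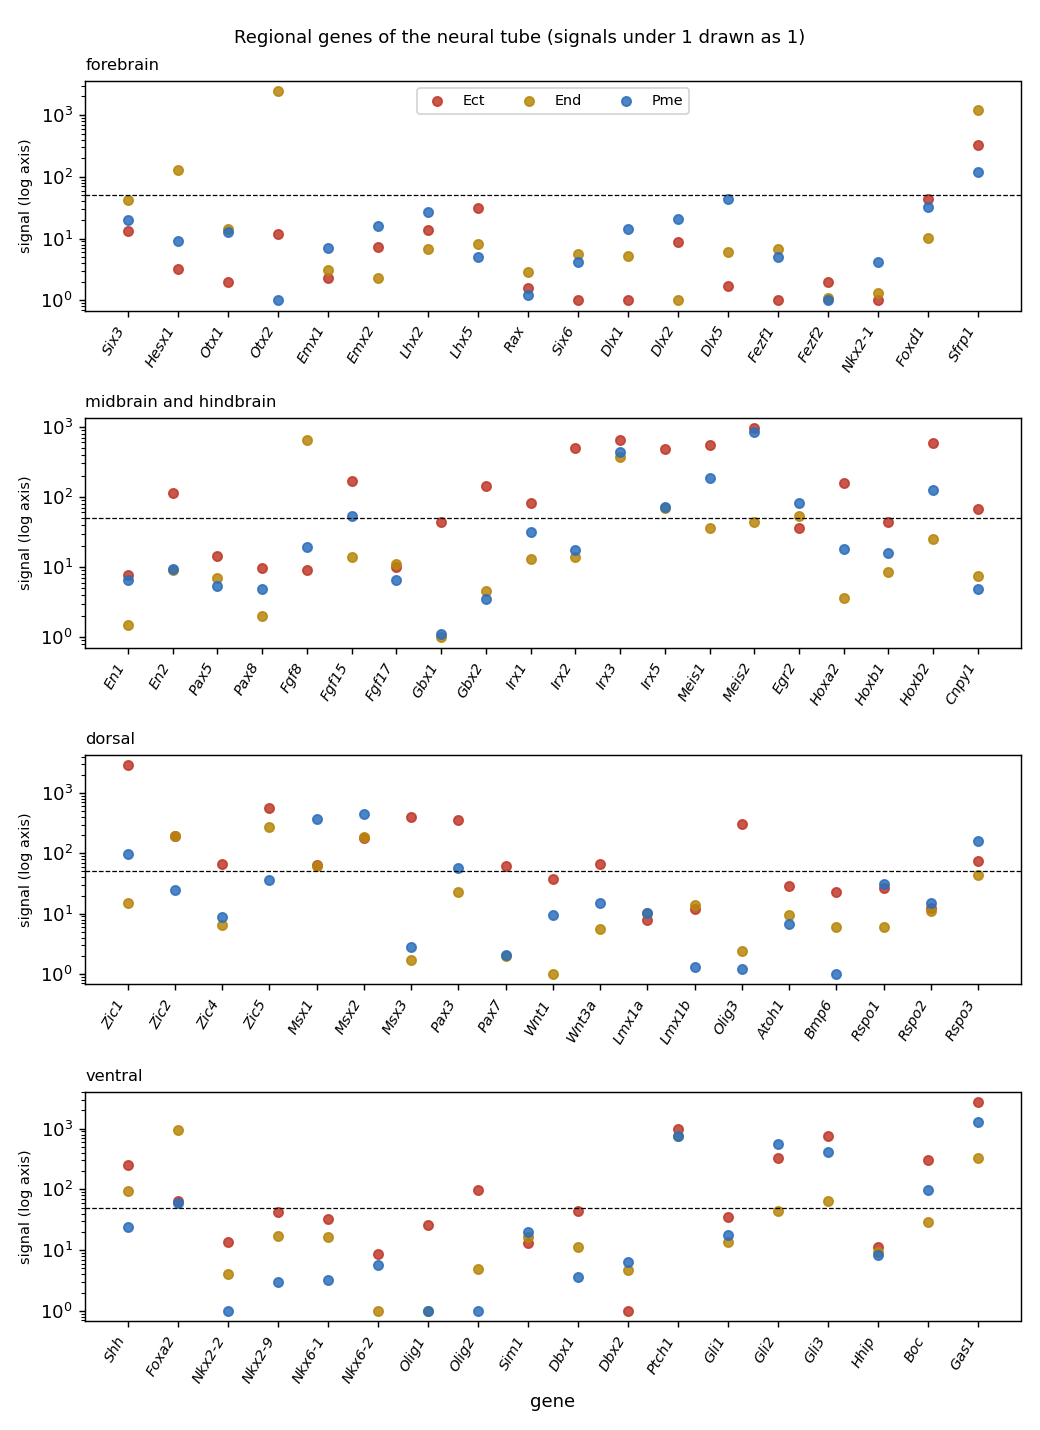
Signals on a log axis of regional genes of the neural tube in Ect, End and Pme, with a panel for each list and a dashed line at the background of 50. In the forebrain panel Ect is above the line for 1 gene, Sfrp1. In the midbrain and hindbrain, the dorsal and the ventral panels Ect is the brightest array for most of the genes above the line.

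Retinoic acid binding proteins separated Ect widely. Crabp1, a cellular retinoic acid binding protein of the hindbrain and neural crest, had 5065.9 in Ect, with 31.0 in End and 333.6 in Pme, a ratio of 15.2 over Pme. Crabp2, its paralogue, had 3999.9 in Ect, with 11.1 in End and 310.4 in Pme, a ratio of 12.9. Cyp26b1, an enzyme that degrades retinoic acid, had 127.0 in Ect, with 3.6 in End and 26.9 in Pme, at least 2.54-fold higher. These were the 3 of 18 retinoid genes called higher in Ect, and 0 were lower. Cyp26a1, the paralogous enzyme, had 66.6 in Ect, with 3322.5 in End and 122.8 in Pme, and Aldh1a2, the enzyme that makes retinoic acid in the embryo, was close to background, at 57.9 in Ect, with 13 in End and 49.7 in Pme. Of 10 fatty acid binding protein genes, Fabp7 was the only gene called, and Fabp5 had 3942.2 in Ect, with 2426.0 in End and 1508.9 in Pme.

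Other derivatives of ectoderm were represented in part. Of 25 neural crest genes, 5 were higher in Ect (Tfap2a, Tfap2b, Pax3, Ednrb and Crabp1) and 0 were lower. Tfap2b, an AP-2 factor of crest and dorsal neural tissue, had 336.2 in Ect, with 11.9 in End and 2.4 in Pme, at least 6.72-fold higher, and Tfap2a had 210.1 in Ect, with 12.3 in End and 19.7 in Pme, at least 4.20-fold higher. Sox10 and Foxd3, defining factors of migrating crest, were under background in all 3 layers, at 21.8 and 18.2 in Ect. Snai2, a factor of cells that leave an epithelium, had 181.8 in Ect, with 44.4 in End and 2139.2 in Pme. Of 25 genes of surface ectoderm and epidermis, 1 (Tfap2a) was higher in Ect and 4 (Krt8, Krt18, Krt19 and Perp) were lower. The epidermal genes Krt5, Krt14 and Trp63 had 17.5, 9.9 and 4.5 in Ect, with 7.6, 6.9 and 5.1 in End, and 15.6, 11.6 and 10.5 in Pme, so none was above background. Of 11 placode genes, Sox11, a SoxC factor that neurons also express, was higher in Ect, at 3067.5 in Ect, with 448.8 in End and 789.1 in Pme (3.89). In this list 0 genes were lower.

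Genes for contact and guidance between cells were called in both directions. Of 53 axon guidance genes, 5 were higher in Ect and 3 were lower. Efnb2, an ephrin ligand, had 1474.8 in Ect, with 50.4 in End and 347.9 in Pme (4.24 over Pme), and Epha3, an ephrin receptor, had 263.1 in Ect, with 7.8 in End and 8.7 in Pme, at least 5.26-fold higher. Nrp1, a receptor for semaphorins and for VEGF, had 100.8 in Ect, with 620.0 in End and 819.4 in Pme, 6.15-fold higher in End than in Ect. Of 12 protocadherins outside the gene clusters, Pcdh8 was higher in Ect and Pcdh7 was lower, at 10.7 in Ect, with 341.7 in End and 125.9 in Pme. Of 19 classical cadherins, 0 were called in either direction.

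Genes lower in Ect were led by the keratins and the desmosome. Of 36 genes of epithelial filaments and junctions, 7 were lower in Ect than in both layers and 0 were higher, and 22 were lower than in End, where 3.67% of all genes were. With the geometric mean over the probe sets of each gene, 4 genes of this list were lower than in both. Krt18 had 86.4 in Ect, with 4221.7 in End and 2451.2 in Pme, 28.4-fold higher in Pme than in Ect. Its partner Krt8 had 107.4 in Ect, with 4400.2 in End and 2969.2 in Pme, a ratio of 27.6. Dsp, the desmosome protein that anchors keratin filaments, had 44.2 in Ect, with 1367.1 in End and 1236.3 in Pme, at least 24.7-fold. In SK7_ESC these 3 genes had 94.4, 122.8 and 79.8, closer to Ect than to either other layer.

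Some genes of adherens and tight junctions had another pattern. Cdh1, the epithelial cadherin, had 34.9 in Ect, with 2204.2 in End and 34.4 in Pme, and the epithelial adhesion gene Epcam had 21.1 in Ect, with 1407.3 in End and 41.7 in Pme. Both were bright in SK7_ESC (1321.4 and 920.9). Cldn6, a claudin of embryonic epithelia, had 34.7 in Ect, with 1789.1 in End and 25 in Pme. For these 3 genes Ect and Pme were both under background and only End was bright among the layers, which the rule does not count as lower in Ect. Other junction genes were above background in every layer: Tjp1, a scaffold of tight junctions, had 695.2 in Ect, with 1346.8 in End and 1084.2 in Pme, and F11r, a junctional adhesion molecule, had 168.4 in Ect, with 695.9 in End and 263.5 in Pme. Krt8, Krt18 and Dsp were bright in Pme without Cdh1.

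**Figure D5:**
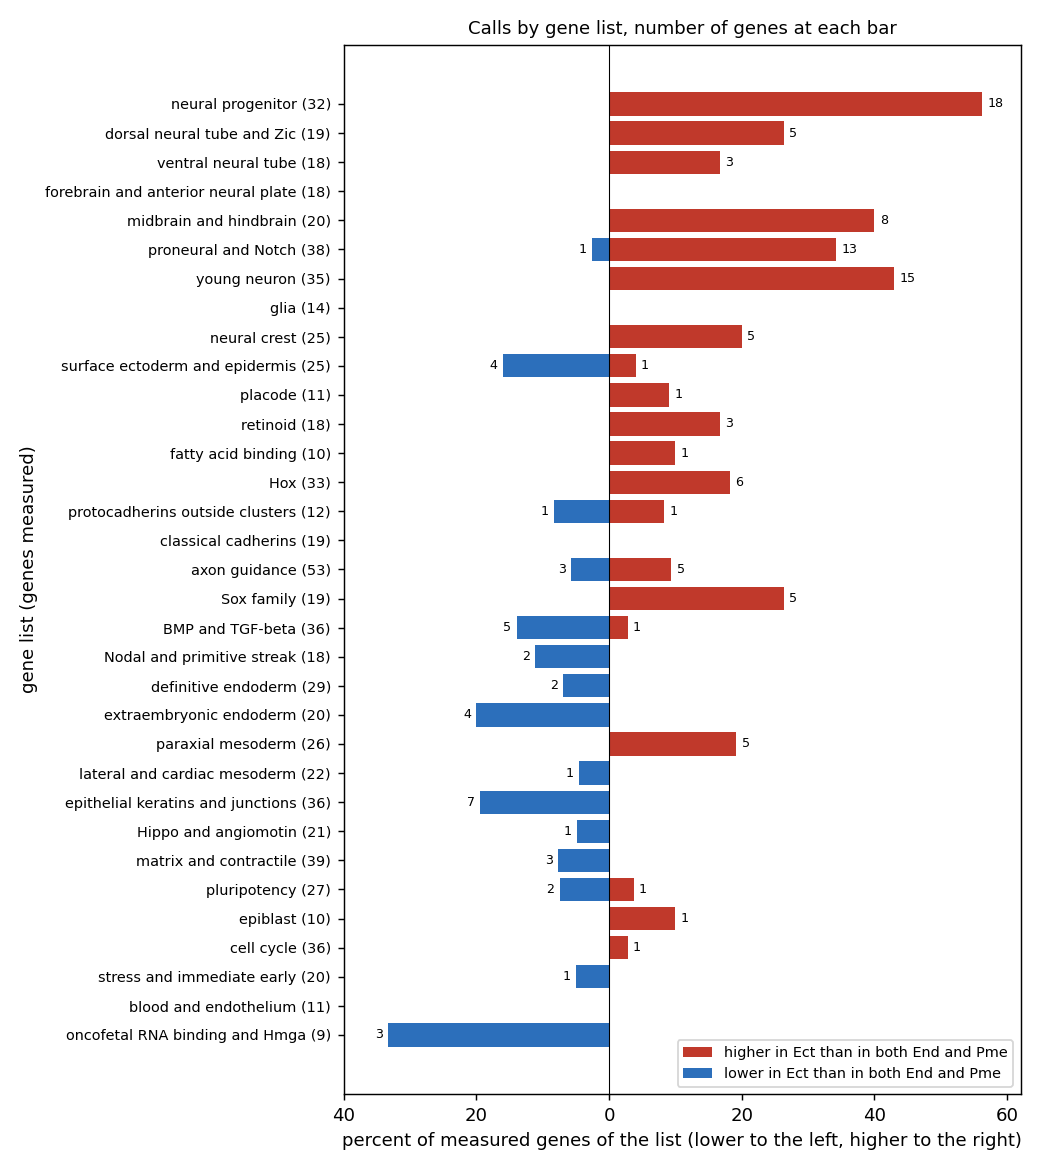
Percent of the measured genes of each list higher in Ect than in both End and Pme (bars to the right) and lower than in both (bars to the left), with the number of genes at each bar. The neural progenitor list reached 56.2% higher, and the epithelial list 19.4% lower, while 1.82% and 1.17% of all genes were called.

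Genes of the BMP and TGF-beta pathways were called mostly on the lower side. Of 36 measured, 5 were lower (Bmp2, Bambi, Smad6, Tgfb1 and Tgfbr3) and 1 was higher (Fst). The ligand gene Bmp2 had 12.6 in Ect, with 436.2 in End and 252.1 in Pme, at least 5.04-fold. Smad6 and Bambi, inhibitors that BMP signalling itself induces, had 44.4 and 46.9 in Ect, with 226.8 and 221.6 in End, and 663.7 and 871.4 in Pme, at least 4.54-fold and 4.43-fold. Fst, which encodes follistatin, an inhibitor that binds activin and BMP ligands, had 205.8 in Ect, with 59.0 in End and 57.6 in Pme, 3.49-fold higher in Ect. Other members of the list did not follow these. The antagonist genes Nog and Chrd were under background in Ect (18.2 and 28.6), and the ligand gene Bmp4 had 87.6 in Ect, with 36.7 in End and 1084.1 in Pme. Of the Id genes, common targets of BMP signalling, Id2 had 1743.6 in Ect, with 220.8 in End and 1178.3 in Pme, and Id1 had 301.9 in Ect, with 948.9 in End and 593.7 in Pme, just short of the rule at 1.97. Id3 had 878.6 in Ect, with 675.9 in End and 991.0 in Pme. Id4, counted in the Notch and proneural list, was called higher, with 237.7 in Ect, with 28.5 in End and 41.5 in Pme. The receptor genes Bmpr1a and Bmpr2 and the signal carriers Smad1 and Smad5 were above background in every layer.

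Genes of the other germ layers, apart from those of paraxial mesoderm, were mostly dim in Ect. Over all genes, 3.67% were lower in Ect than in End and 1.17% were lower than in both layers. Of 29 definitive endoderm genes, 22 were lower in Ect than in End, and 2 (Gata6 and Dkk1) were lower than in both layers. Cxcr4, a further gene of this list, was bright in Ect, with 781.4 in Ect, with 1710.8 in End and 165.6 in Pme. Gata6, a zinc finger factor of endoderm and heart, had 45.5 in Ect, with 999.7 in End and 408.6 in Pme, at least 8.17-fold. Of 18 genes of Nodal signalling and the primitive streak, 13 were lower in Ect than in End, and 2 (the co-receptor gene Cfc1 and the Nodal effector gene Foxh1) were lower than in both layers. Of 22 lateral and cardiac mesoderm genes, 10 were lower in Ect than in Pme, where 3.68% of all genes were, and 1 (Gata6) was lower than in both. The number of this list called lower than both layers was between 1 and 4 over the other settings tried. The paraxial mesoderm list of 26 genes differed, with a summed signal of 3077.4 in Ect, with 3937.3 in End and 2051.9 in Pme. Its genes Pcdh8, Dll1, Lfng, Pax3 and Tcf15 were all higher in Ect, and 0 were lower than in both layers. These 5 genes went against the direction of the list, and Lfng and Tcf15 lost their call at a background of 100. Tcf15, which somites need to become epithelial, had 124.7 in Ect, with 19.6 in End and 29.1 in Pme, at least 2.49-fold higher, and SK7_ESC had 110.8. The other 4 genes are also genes of the neural tube.

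A few basement membrane and contractile genes were lower in Ect than in both layers. Among 20 genes of extraembryonic endoderm, 4 were lower and 0 were higher, and 3 of these 4 encode basement membrane chains: Lamb1 had 185.9 in Ect, with 1600.6 in End and 822.5 in Pme, Lamc1 had 106.3, 434.0 and 310.1, and Col4a1 had 115.4, 711.7 and 575.1. The ratios of Pme over Ect were 4.42, 2.92 and 4.98. Lama1, a further laminin chain, was not called and had 97.5 in Ect, with 18.5 in End and 62.9 in Pme. Among 39 matrix and contractile genes, 3 were lower than in both layers (Cnn2, Tpm1 and Anxa2). In the same list 29 were lower than in Pme, where 3.68% of all genes were, and 17 were higher than in End, where 3.90% were. The summed signal of this list was 12401.0 in Ect, with 9169.4 in End and 36801.8 in Pme, which puts Ect between the other layers. Col1a2, a fibrillar collagen chain, had 289.3 in Ect, with 115.3 in End and 1772.9 in Pme, and the matrix proteoglycan gene Dcn had 951.1, 148.1 and 1765.6. Fibroblast genes were therefore above background in Ect, and how far other cell types in the culture enter the counts was not tested. Of 11 blood and endothelial genes, 0 were called in either direction, with a summed signal of 93.0 in Ect, with 114.1 in End and 259.1 in Pme.

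Single genes with large ratios outside these lists included Car4, a carbonic anhydrase of the cell surface, with 30.5 in Ect, with 2772.5 in End and 882.3 in Pme (at least 17.6-fold). Amot, an angiomotin that binds YAP at cell junctions, had 336.9 in Ect, with 4847.9 in End and 2906.7 in Pme, a ratio of 8.63. It was the only gene of 21 of the Hippo pathway list that was called, and Yap1 itself had 806.1 in Ect, with 1017.4 in End and 1082.4 in Pme. S100a10, a partner of annexin A2, had 207.6 in Ect, with 2522.9 in End and 1461.8 in Pme (7.04), and Podxl, an anti-adhesive sialomucin, had 244.9 in Ect, with 2439.4 in End and 1327.4 in Pme (5.42). On the higher side, Ckb, the brain-type creatine kinase, had 969.9 in Ect, with 60.4 in End and 25 in Pme (16.1), and the noncoding RNAs Miat and Pantr1 had 975.8 and 769.5 in Ect, with 18.0 and 12.1 in End, and 5.6 and 6.0 in Pme, at least 19.5-fold and 15.4-fold higher.

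Genes of growth and of the undifferentiated state were called in small numbers. Of 36 cell cycle genes, 1 was higher in Ect (Cdkn1a, an inhibitor of cyclin-dependent kinases) and 0 were lower. The proliferation marker Mki67 had 1221.9 in Ect, with 1291.3 in End and 1211.9 in Pme. Of 27 pluripotency genes, Sox2 was higher in Ect, and Lin28a and Sall4 were lower. Lin28a, an RNA-binding protein that blocks let-7 maturation, had 448.3 in Ect, with 1541.8 in End and 1049.2 in Pme (2.34), and Sall4, a zinc finger factor of ES cells, had 495.0 in Ect, with 2946.8 in End and 1273.6 in Pme (2.57). Pou5f1, the core factor of pluripotency, had 7.5 in Ect, with 57.3 in End and 25.7 in Pme. Of 10 epiblast genes, Sall2, a zinc finger factor, was higher in Ect. Of 9 oncofetal RNA-binding and growth genes, 3 (Lin28a, Igf2 and Peg3) were lower and 0 were higher. Of 20 stress and immediate early genes, 1 was lower in Ect, Myc, at 57.8 in Ect, with 207.2 in End and 218.0 in Pme. In that list 0 were higher.

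Arrays that the rule did not use placed the called genes further. Of the 332 genes higher in Ect, 249 (75%) were above background in Brain, 90 (27.1%) in Liver and 121 (36.4%) in Sk_muscle, and 160 (48.2%) in SK7_ESC. The 8580 genes above background in Ect at all were above it in Brain, Liver, Sk_muscle and SK7_ESC in 83.5%, 73.1%, 75.4% and 85.5% of cases. Each of these shares was above that of the 332 genes, by the narrowest margin in Brain. The median signal of the 332 genes was 165.8 in Brain, 19.4 in Liver and 28.0 in Sk_muscle. By the same 2-fold rule, Brain was higher than both Liver and Sk_muscle for 137 of them (41.3%) and lower for 6 (1.8%), where 10.9% of all genes were higher in Brain and 4.09% lower. Of the 8580 genes above background in Ect, 13.5% were higher in Brain and 6.8% lower.

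The genes lower in Ect had a different profile. Of these 213 genes, 131 (61.5%) were above background in Brain, 123 (57.7%) in Liver and 143 (67.1%) in Sk_muscle, and 173 (81.2%) in SK7_ESC. The 7729 genes above background in both End and Pme had larger shares in these arrays: 84.9%, 78.3%, 80.0% and 92.2%. Brain was higher than both other tissues for 16 of the 213 genes (7.5%) and lower for 26 (12.2%). Of the 7729 genes, 11.2% were higher in Brain and 7.4% lower. In SK7_ESC, 172 of the 332 genes higher in Ect were under background and 18 were at least as bright as in Ect. Of the genes lower in Ect, 40 were under background in SK7_ESC and 178 were at least as bright there as in Ect, with signals under 50 counted as equal. For 156 of the 213 genes, the signal in SK7_ESC was at or under those of both End and Pme.

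Repeat measurements within an array came only from genes with more than 1 probe set, and share the culture and the hybridization. For genes with 2 probe sets above background, the log2 ratios of Ect over End from the 2 differed by a median of 0.19 (95th percentile 0.76), and those of Ect over Pme by 0.19 (0.67). Of the 332 genes higher in Ect, 118 had a single probe set and 214 had others, with at least 1 above background in a layer for 145. In the rest of the 214 the other probe sets were under background in every layer. Among the 145 genes, at least 1 such probe set went the same way in 144 and past 2-fold in 79. In 5 genes at least 1 had Ect dimmer than the brighter of End and Pme, where Ect may still lie between them. Of the 213 lower genes, 65 had a single probe set and 148 had others, with at least 1 above background in a layer for 119. Among the 119 genes, at least 1 went the same way in 109 and past 2-fold in 66. In 2 genes at least 1 had Ect brighter than the dimmer of End and Pme. Genes at the edge of the rule had ratios close to it: Zswim6 was just inside at 554.6 in Ect, with 230.7 in End and 277.1 in Pme (2.001), and Zfp184 just outside at 105.7, 53.3 and 50.9 (1.983). Among lower genes, Nans was just inside at 182.2 in Ect, with 364.4 in End and 378.0 in Pme, and Tnfrsf12a just outside at 80.5, 240.7 and 160.9 (1.999). As a scale for the counts, End was higher than both other layers for 339 genes and lower for 242, and Pme was higher for 376 and lower for 73. Medians of the raw signal were 18.2 in Ect, with 16.2 in End and 18.4 in Pme, and 8580, 8285 and 8623 genes were above background.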

How the data were processed

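Total RNA of 7 samples was hybridized to Affymetrix mouse expression arrays, 1 array for each group, and groups were taken from the labels. The authors deposited linear intensity values for 45101 probe sets, and their methods describe a global normalization that set each array's average to 100. Plain means of the deposited values were not 100. For the compared layers they were 159.3 (Ect), 159.8 (End) and 157.3 (Pme). The other arrays had 162.6 (SK7_ESC), 141.2 (Brain), 191.9 (Liver) and 204.2 (Sk_muscle). How the authors took the average was not given, and the background of 50 was applied to the values as deposited. The summarisation algorithm was not given in the sources used here. From the platform annotation, 34958 probe sets have 1 gene symbol, 932 have several and 9211 are unnamed here, which left 18194 genes.

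The number of arrays limits the precision, since no spread can be estimated, and ratios against signals under 50 are lower bounds. The 2-fold rule, the background of 50, the members and the gene lists were chosen with earlier results of these data known, and 3 further lists were added after values were seen. The text names the 3 markers, the 15 largest ratios in each direction without predicted genes, up to 5 called genes of each list in each direction, genes that define a list or run against it, and genes at the edge of the rule. Genes named outside this rule are the members of other lists given as values, chosen after their values were seen. Ratios were computed in Python 3.11.15 with pandas 2.3.3 and numpy 2.4.6. The code of the size rule was run on simulated signals with a chosen noise. That run checks the code only, since the noise was not estimated from these arrays. The alternatives were a background of 20 or 100, quantile normalization, scaling to the same median, other choices of probe set, a 3-fold rule and the mean of End and Pme. Promoter windows came from RefSeq (GRCm38.p6). DNA methylation was not analysed here.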

Additional observations from a re-analysis of the deposited data

Results flagged for a closer look

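Probe sets outside the gene table also passed the 2-fold rule. Of 9211 probe sets that are unnamed here, 21 were higher in Ect than in End and Pme and 18 were lower. The unnamed probe set with the largest ratio had 379.0 in Ect, with 5.9 in End and 1.2 in Pme, and 269.1 in Brain. Of 932 probe sets annotated to several genes, 9 were higher in Ect and 4 were lower. A probe set shared by Tubb2b, a tubulin of developing neurons, and the pseudogene Tubb2a-ps2 had 2192.6 in Ect, with 565.5 in End and 270.9 in Pme. A probe set shared by the imprinted noncoding RNA H19 and the microRNA Mir675, which lies within it, had 346.2 in Ect, with 2748.4 in End and 5016.0 in Pme, 7.94-fold higher in End than in Ect. Which of the genes a shared probe set measures cannot be told apart.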

How the results depend on the processing

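The 332 higher and 213 lower genes became 558 and 333 at a background of 20, 209 and 132 at 100, and 137 and 77 with a 3-fold rule. Against the mean log2 signal of End and Pme, 526 genes were lower and 483 higher, so the share of higher genes among those called was 47.9% and not 60.9%. This setting also counts genes that differ from 1 layer only. Between 228 and 335 genes were higher and between 150 and 247 lower under quantile normalization, scaling to the same median and the other choices of probe set. The median log2 ratio of Ect over End was 0.05 as deposited and -0.05 with equal medians, and that of Ect over Pme 0.0 and 0.02. Of 127 genes called and named by the rule, 70 kept their call under every setting that measured them, and 0 reversed. Averaging the probe sets of a gene geometrically removed 27 calls, a background of 100 removed 28, the 3-fold rule 36, scaling to the same median 3 (Gpm6b, Zic5 and Elavl2) and quantile normalization 2 (Lfng and Dsc2). The cause was not tested. No paired analysis was possible because each group has 1 array. Signals under 50 carry no order, so genes dimmer than 100 in the brighter array could not be called.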

Other observations

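Gene groups chosen after values were seen showed further differences, and their counts are no independent evidence. Of 39 genes of the amino acid response, a program that the factor Atf4 controls, 12 were lower in Ect than in both layers and 0 were higher, with a median log2 ratio of -0.51 against 0.0 over all genes. Asns, the asparagine synthetase gene, had 543.1 in Ect, with 2529.0 in End and 1426.6 in Pme, 2.63-fold higher in Pme than in Ect. Slc7a3, a cationic amino acid transporter, had 35.8 in Ect, with 632.5 in End and 263.7 in Pme, at least 5.27-fold. Slc7a5, a transporter of large neutral amino acids, had 150.9 in Ect, with 703.3 in End and 369.3 in Pme, and Chac1, an enzyme that degrades glutathione, had 48.8, 341.9 and 208.2. Atf4 itself had 718.3 in Ect, with 1508.1 in End and 1290.1 in Pme, a ratio of 1.80 that was not called. The summed signal of the 39 genes was 13738.3 in Ect, with 26571.7 in End and 22463.5 in Pme, and 26226.0 in SK7_ESC. Culture media of the layers were not given in the sources used here.

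Imprinted genes went in both directions. Of 38 measured, 4 were higher in Ect and 8 were lower. Plagl1, a zinc finger factor, had 3763.8 in Ect, with 216.6 in End and 1340.2 in Pme (2.81 over Pme), and Peg12 had 221.8 in Ect, with 26.2 in End and 40.9 in Pme (at least 4.44-fold). The noncoding RNAs Meg3, Rian and Mirg, neighbours in the Dlk1-Dio3 region, had 796.5, 251.2 and 37.5 in Ect, with 2060.2, 664.2 and 131.6 in End, and 3216.6, 1018.4 and 133.1 in Pme, all lower in Ect. Igf2, a fetal growth factor, had 185.7 in Ect, with 583.0 in End and 2383.9 in Pme, a ratio of 3.14 that was 1.44 with the geometric mean of its probe sets. Of 23 genes of the p53 response, 5 were higher in Ect (Cdkn1a, Ccng1, Plk3, Eda2r and Ei24) and 1 was lower (Perp). Cdkn1a had 483.7 in Ect, with 163.5 in End and 96.6 in Pme (2.96 over End), and Ccng1, a cyclin that p53 induces, had 1744.5, 602.5 and 840.7 (2.08 over Pme). Mdm2, the p53 inhibitor that p53 induces, was alike in the layers, at 266.0 in Ect, with 232.2 in End and 225.4 in Pme.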
